A study of Mus musculus with 66 samples.

Results

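The onset of muscle formation after injury was followed in mouse gastrocnemius, a calf muscle, by setting 4 arrays taken at 3 and 3.5 d after an injection of cardiotoxin against 4 arrays taken at 1 and 2 d. These 8 arrays are all those labelled ctx1d, ctx2d, ctx3d and ctx3.5d on the later version (Av2) of an Affymetrix murine array, with 2 arrays at each time. That version holds 54 of the 66 arrays of the series, which cover untreated muscle and 26 times after injection. Cardiotoxin is a snake venom toxin that breaks up muscle fibres and spares the satellite cells, the stem cells that lie against them, and all 8 muscles had received it. No injected control entered the comparison. Untreated muscle, 2 arrays labelled with an age of 8 weeks, is given beside the values for scale. Its arrays belong to neither side of the comparison and entered the fit only in the estimate of the spread, as did those of the other times. A dose of 100 ul at 10 uM is on the labels of other arrays of the series. For the 8 arrays no label gives dose, strain, genotype or sex. Whether arrays of 1 time came from separate animals is not said either, and the codes of both 1 d samples carry the number 1. The p-values of the fit therefore measure only the spread between arrays of the same time, taken over all 54 arrays, which may be technical. Whole muscle was measured, so fewer cells of a type and less RNA per cell cannot be told apart anywhere in these data.

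When fibres die, neutrophils enter the muscle first and are followed by monocytes that become macrophages and clear the debris. Satellite cells meanwhile enter the cell cycle as myoblasts under Myf5 and Myod1, transcription factors that fix the muscle fate. Myoblasts leave the cycle when Myog comes on with inhibitors of cyclin-dependent kinases, then fuse into myotubes. New myotubes build their first contractile apparatus and their acetylcholine receptor from isoforms used in the embryo.

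Intensities were set to a common mean by the authors, as read from the values: the 2% trimmed mean lay between 800.4 and 800.5 on all 54 arrays. On the 8 arrays the median intensity lay between 301.4 and 361.3, and 76.4% to 82.0% of the probe sets lay above the floor of 64.7, the 20th percentile of the median array, to which lower values were raised. Arrays of the same time correlated with r of 0.935 at 1 d, 0.966 at 2 d, 0.981 at 3 d and 0.972 at 3.5 d. These values were taken over the 11997 probe sets tested, which are not independent replicates. The manufacturer's b-actin control probe sets differed between the groups. The 3' over 5' ratio was 0.033 to 0.078 on the 4 earlier arrays and 0.818 to 0.989 on the 4 later ones, with 0.725 and 1.06 in untreated muscle (exact permutation test, two-sided p = 0.0286, the smallest p that 4 against 4 allow, adjusted over 3 ratios p = 0.0429). The ratio of the middle to the 5' actin probe set was 0.870 to 1.09 against 1.21 to 1.42, with the same p-values, and the Gapdh 3' over 5' ratio was 0.589 to 0.970 against 0.691 to 0.772 (exact permutation test, p = 0.857). Within these 8 arrays the actin ratios and the time of sampling cannot be told apart. The 2 arrays at 4 d, looked at after the ratio was seen, carry the low 3' over 5' actin ratio of the earlier arrays, 0.045 and 0.018, and their values are given below for some of the genes named.

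Of 8086 genes tested, each represented by its brightest probe set, 1013 (12.5%) were higher at 3 and 3.5 d than at 1 and 2 d and 652 (8.06%) were lower, at an adjusted p under 0.05 from limma. The median log2 change over all genes was 0.008. The 4 later arrays all lay above the 4 earlier ones for 678 of the genes that rose, and below them for 494 of those that fell. A change of at least 2-fold was found for 379 genes upward and 254 downward, and at least 4-fold for 65 each way. Genes that rose made up 60.8% of all calls with the values as deposited, 55.0% after quantile normalization (885 higher, 725 lower) and 45.3% after scaling to equal medians (730 higher, 881 lower, median log2 change -0.039), so the balance between rises and falls depends on the scaling. With low values raised to the floor, the largest log2 changes were the rise of Myh3, the embryonic myosin heavy chain, and the fall of Lcn2, an iron-binding protein of neutrophil granules. Changes that reach the floor are bounds, so genes such as Myh3 and Mxd1 have no exact place in this order. Unless said otherwise a change compares the 4 later with the 4 earlier arrays (n = 4 each), and it is given as limma's log2 change with its standard error (SE), and as "at least" where arrays on the lower side lay at the floor. Levels are intensities, which compare arrays but not genes.

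**Figure D1:**
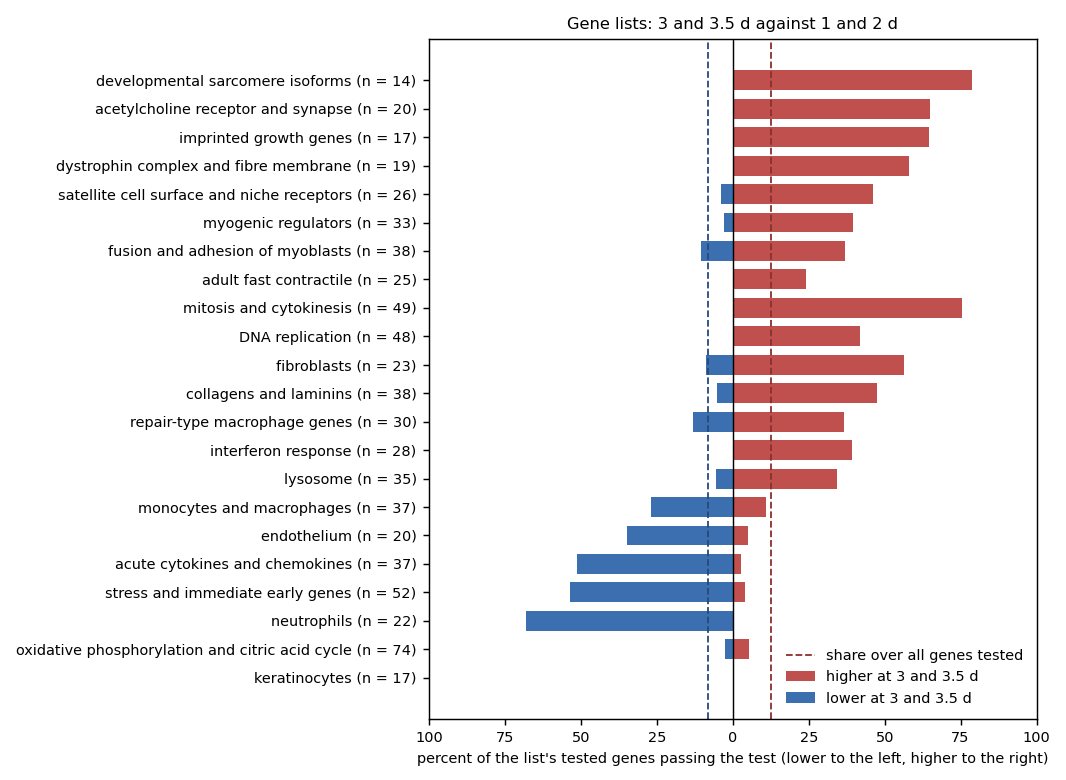
Share of each list's tested genes (n in brackets) that were higher (red bars, to the right) or lower (blue bars, to the left) at 3 and 3.5 d than at 1 and 2 d, in percent, at an adjusted p under 0.05; dashed lines mark the shares over all 8086 genes, 12.5% and 8.06%. Developmental sarcomere isoforms and mitosis genes reach furthest to the right and neutrophil genes furthest to the left.

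Among the regulators of muscle formation, 13 of 33 (39.4%) rose and 1 of 33 fell, with a median log2 change of 0.20. Myog, the factor that starts differentiation, had intensities of 322 and 854 at 1 d, 1200.2 and 714 at 2 d, 7870.3 and 13518 at 3 d and 11968 and 10574 at 3.5 d. Every later array exceeded every earlier one, with a log2 change of 3.95 (SE 0.25, adjusted p = 3.2e-13) or 15.5-fold, and the 2 untreated arrays read 898 and 664. The change lay between 2 and 3 d, with a log2 change of 3.48 (SE 0.35, adjusted p = 6.1e-08), and from 3 to 3.5 d no change was called (log2 change 0.13 (adjusted p = 1)). Myod1, which commits cells to muscle, had intensities of 1897 and 3206 at 1 d, 2329 and 2429 at 2 d, 6991 and 8613 at 3 d and 6052 and 7415 at 3.5 d. It rose with a log2 change of 1.57 (SE 0.15, adjusted p = 2.1e-09) from levels near the 1839 and 2511 of untreated muscle, without overlap between the groups. Myf5, its relative in early myoblasts, was dim, with 53.9 and 74.0 at 1 d, 71.2 and 64.4 at 2 d, 173 and 138 at 3 d and 389 and 347 at 3.5 d, and rose by a log2 change of at least 1.80 (SE 0.27, adjusted p = 1e-05). Its highest arrays were the 2 at 3.5 d, although the step from 3 d was not called, log2 change 1.25 (adjusted p = 0.21). Hes6, a helper of Myog's induction, rose from between 238 and 447 to between 1192 and 1896, a log2 change of 2.21 (SE 0.17, adjusted p = 5.5e-11).

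Other regulators had smaller changes or no call. Myf6, the factor of mature fibres, had intensities of 1558 and 5171 at 1 d, 517 and 511 at 2 d, 693 and 375 at 3 d and 1181 and 1327 at 3.5 d. Between the windows Myf6 had a log2 change of -0.60 (SE 0.27, adjusted p = 0.13). Its arrays overlapped, and it had fallen from 1 to 2 d with a log2 change of -2.47 (adjusted p = 7.1e-05), the 1 d replicate 2 standing highest of the 8. The myocyte enhancer factors Mef2a and Mef2c rose with log2 changes of 0.56 (adjusted p = 0.018) and 0.69 (adjusted p = 0.0058). Mef2a was not called without 1 d replicate 2, 2 d replicate 2, 3 d replicate 1 or 3.5 d replicate 1, nor Mef2c without 1 d replicate 1. The Id proteins, which hold the muscle factors inactive, were not called: the log2 changes were -0.51 (adjusted p = 0.11) for Id1, -0.41 (adjusted p = 0.11) for Id2 and -0.008 (adjusted p = 1) for Id3. The 4 later Id1 arrays all lay below the earlier ones, between 829 and 1132 against between 1219 and 1868. Pax3, a factor of embryonic muscle precursors, had 207 and 138 at 1 d, 233 and 34.2 at 2 d, 139.6 and 23.8 at 3 d and 45.4 and 154 at 3.5 d and no call, with 3 of the 8 arrays under the floor. The 1 regulator that fell was Bhlhe40, a repressor of the clock system, with a log2 change of -1.26 (adjusted p = 2.2e-06).

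Snai2, also called Slug, a zinc-finger repressor that has been studied as a target of Myod1, rose by a log2 change of 0.89 (SE 0.15, adjusted p = 4.6e-05). Its intensities were 604 and 763 at 1 d, 819 and 1505 at 2 d, 1559.8 and 1674 at 3 d and 1499 and 1702 at 3.5 d. Replicate 2 at 2 d already reached the level of the later arrays, so the groups overlapped. The step from 1 to 2 d was called, log2 change 0.71 (adjusted p = 0.046). Neither that from 2 to 3 d, log2 change 0.54 (adjusted p = 0.18), nor that from 3 to 3.5 d, log2 change -0.017 (adjusted p = 1), was. Without the 1 d arrays the change between the windows was not called either. In the list of Snai2 and mesenchymal regulators 8 of 19 rose and 1 of 19 fell. Cdh2, N-cadherin, went from between 63.2 and 142 to between 678 and 981, a log2 change of at least 2.92 (SE 0.18, adjusted p = 3.2e-13). The transcription factors Sox11 and Meox1 rose with log2 changes of 1.37 (adjusted p = 6e-05) and 1.21 (adjusted p = 1.5e-06), and the immediate early gene Egr1 fell with a log2 change of -1.89 (adjusted p = 2.2e-05).

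The Myog promoter is shown because Myog stands at the head of the muscle programme and its regulators of the MyoD family bind E-boxes, the sites CANNTG, which read the same on both strands. It lies at chr1:134289754-134290053 on the + strand of GRCm38.p6 and runs from 250 bases before to 50 bases after the start in RefSeq, with E-boxes in capitals.
Myog promoter: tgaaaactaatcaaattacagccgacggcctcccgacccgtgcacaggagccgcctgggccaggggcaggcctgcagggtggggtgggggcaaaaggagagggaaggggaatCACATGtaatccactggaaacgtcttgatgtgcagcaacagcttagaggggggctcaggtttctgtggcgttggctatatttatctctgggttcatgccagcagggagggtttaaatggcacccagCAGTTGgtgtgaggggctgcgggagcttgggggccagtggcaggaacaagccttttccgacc
A search found 2 E-boxes in it, CACATG starting at base -138 and CAGTTG at base -12 from the start. E-boxes of any kind are common, held by 75.0% of 27025 mouse genes with a RefSeq promoter and by 69.0% of the 6452 of them tested on the array. A gene was counted where any of its promoters of this length held the site. E-boxes were found for 11 of the 14 genes with a promoter at hand among the 15 largest rises (78.6%). The form CAGCTG was found for 6 of the 14 (42.9%, against 17.9% over the genes on the array). The form CACCTG, on either strand, was found for 3 (21.4%, against 21.7%). Of the core sites of Mef2 factors only the exact forms TAAAAATA and TATTTATA were searched. They were found for 0 of the 14, against 1.64% and 1.29% on the array. Other forms were not searched, so this count does not show that Mef2 sites are absent. These counts describe letters in a window, with no test.

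**Figure D2:**
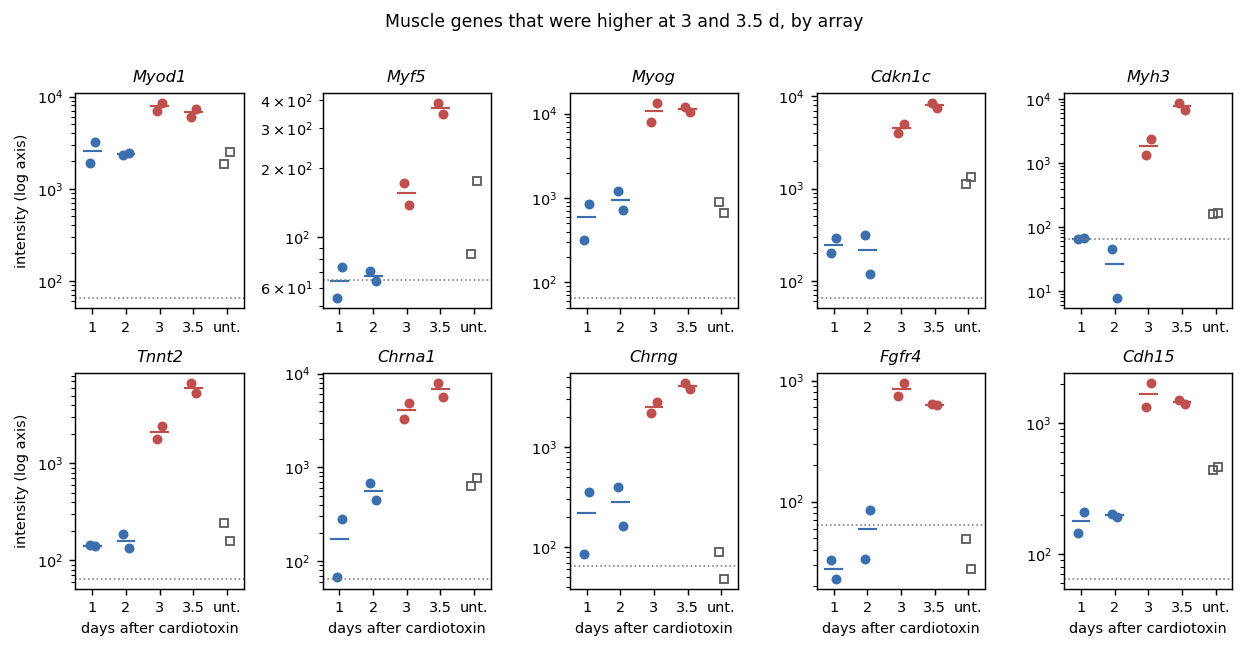
Intensity (log axis) of 10 muscle genes on each array at 1, 2 (blue), 3 and 3.5 d (red) after cardiotoxin, with the mean of each time as a bar; open squares are the 2 untreated arrays and the dotted line the floor of 64.7. In all 10 panels the 4 red points lie above the 4 blue ones.

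Receptors of satellite cells and myoblasts rose with the factors: 12 of 26 (46.2%) of the list were higher and 1 of 26 was lower. Fgfr4, a fibroblast growth factor receptor of myoblasts, had intensities of 33.0 and 23.1 at 1 d, 33.6 and 85.9 at 2 d, 746 and 955 at 3 d and 634 and 631 at 3.5 d. It was at the floor on 3 of the 4 earlier arrays and between 631 and 955 on the later ones. It had a log2 change of at least 3.40 (SE 0.19, adjusted p = 4.6e-14) and was highest at 3 d. Cdh15, M-cadherin, which holds satellite cells and myoblasts together, had 145 and 211 at 1 d, 203 and 192 at 2 d, 1325 and 2032 at 3 d and 1494 and 1399 at 3.5 d. Its groups did not overlap, with a log2 change of 3.05 (SE 0.32, adjusted p = 2.1e-08), and the whole step lay between 2 and 3 d, log2 change 3.06 (adjusted p = 5.6e-05). Ncam1, the neural adhesion molecule of activated myoblasts, went from between 322 and 484 to between 1285 and 2150.1, a log2 change of 2.18 (SE 0.15, adjusted p = 6.5e-12). Cav3, the caveolin of the muscle membrane, rose from between 223 and 887 to between 1281 and 4477, with its highest arrays at 3.5 d and a log2 change of 2.29 (SE 0.30, adjusted p = 9.6e-07). The gene that fell was Igf1r, the receptor of insulin-like growth factors, with a log2 change of -0.94 (adjusted p = 0.00033). Over the wider list for fusion and adhesion of myoblasts 14 of 38 (36.8%) rose, against 12.5% of all genes. Falls came to 4 of 38 (10.5%), near the 8.06% of all genes. The largest of these falls was that of the interleukin 4 receptor Il4ra, from between 7475 and 8522 to between 1741 and 2273, a log2 change of -1.90 (SE 0.24, adjusted p = 5.7e-07). Il4ra also stands in the list of macrophage genes.

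Acetylcholine receptor and synapse genes were among the lists with the largest share of rises, 13 of 20 (65%), with none lower and a median log2 change of 1.17. At 3 d against 2 d, where 2.82% of all genes rose and 1.88% fell, 9 of 20 of the list had risen. Chrna1, the alpha subunit of the receptor, had intensities of 67.7 and 278 at 1 d, 685 and 447 at 2 d, 3279 and 4853 at 3 d and 7954 and 5598 at 3.5 d. It increased at each of the first 2 steps, with log2 changes of 2.01 (adjusted p = 0.0053) and 2.85 (adjusted p = 0.00012), with a log2 change of 4.23 (SE 0.32, adjusted p = 2.1e-11) between the windows. The 1 d replicate 1 was lowest at 67.7 and the untreated arrays read 632 and 776. Chrng, the gamma subunit that marks the receptor of embryonic and denervated muscle, had 84.9 and 357 at 1 d, 397 and 163 at 2 d, 2173 and 2785 at 3 d and 4347 and 3787 at 3.5 d, against 90.3 and 48.4 in untreated muscle. All later arrays exceeded the earlier ones by a wide margin, with a log2 change of 3.91 (SE 0.36, adjusted p = 1.4e-09). Chrnd, the delta subunit, rose from between 200.2 and 477 to between 697 and 1149, a log2 change of 1.64 (SE 0.30, adjusted p = 0.00012). Chrne, the epsilon subunit that replaces gamma in adult muscle, was added after its values were seen. It had 949 and 1166 at 1 d, 959.7 and 426 at 2 d, 1059 and 542 at 3 d and 430.3 and 417 at 3.5 d and was not called, log2 change -0.53 (adjusted p = 0.44). Erbb3, a neuregulin receptor of the synapse that Schwann cells carry too, went from between 297 and 482 to between 1547 and 2331, a log2 change of 2.41 (SE 0.18, adjusted p = 1.6e-11). Ppfia4, a liprin scaffold protein, had 2 earlier arrays at the floor and rose by a log2 change of at least 3.65 (SE 0.33, adjusted p = 8.7e-10).

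The Chrna1 and Chrng promoters are shown because both genes are among the 15 largest rises and their promoters hold several E-boxes, in capitals. Chrna1 lies at chr2:73580289-73580588 on the - strand and Chrng at chr1:87205561-87205860 on the + strand of GRCm38.p6, both from RefSeq and written 5' to 3'.
Chrna1 promoter: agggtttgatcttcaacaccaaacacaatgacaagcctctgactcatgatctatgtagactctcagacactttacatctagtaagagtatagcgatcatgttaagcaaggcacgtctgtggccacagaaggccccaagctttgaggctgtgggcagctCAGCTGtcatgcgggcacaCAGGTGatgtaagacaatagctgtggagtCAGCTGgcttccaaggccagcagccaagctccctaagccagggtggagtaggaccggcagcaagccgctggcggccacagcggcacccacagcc
Chrng promoter: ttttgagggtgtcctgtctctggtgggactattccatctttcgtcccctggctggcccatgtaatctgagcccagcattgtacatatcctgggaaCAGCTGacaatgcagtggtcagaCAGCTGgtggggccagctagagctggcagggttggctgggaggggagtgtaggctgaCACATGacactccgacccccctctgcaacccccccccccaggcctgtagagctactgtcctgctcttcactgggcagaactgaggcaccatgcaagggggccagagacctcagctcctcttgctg
In Chrna1 the matches were CAGCTG at base -92, CAGGTG at -73 and CAGCTG at -44, and in Chrng they were CAGCTG at -155 and at -132 and CACATG at -75. Of the list's genes that rose, 8 had a promoter at hand. Of these 7 (87.5%) held an E-box, 4 (50%) the form CAGCTG and 2 (25%) the form CACCTG.

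The embryonic and neonatal isoforms of the sarcomere, the contractile unit of muscle, rose together: 11 of 14 (78.6%) were higher, none was lower, and the median log2 change was 1.72. Myh3 had intensities of 65.1 and 66.5 at 1 d, 45.1 and 7.70 at 2 d, 1324 and 2413 at 3 d and 8858 and 6739.9 at 3.5 d. It was at or beside the floor on all 4 earlier arrays and went up over both later steps, with log2 changes of at least 4.79 (adjusted p = 1e-09) and 2.11 (adjusted p = 0.0072), with a log2 change of at least 5.83 (SE 0.28, adjusted p = 8.2e-16) between the windows. Tnnt2, the troponin T of heart and embryonic muscle, had 143 and 141 at 1 d, 185 and 135 at 2 d, 1785 and 2404 at 3 d and 6757 and 5307 at 3.5 d. It was level over the earlier arrays, with a log2 change of 4.55 (SE 0.17, adjusted p = 1.6e-18), and also rose again from 3 to 3.5 d, log2 change 1.53 (adjusted p = 0.00087). Myl4, the embryonic alkali light chain, had 40.7 and 218 at 1 d, 456 and 266 at 2 d, 1734 and 3056 at 3 d and 11290 and 7543 at 3.5 d. In limma Myl4 had a log2 change of at least 4.5 (SE 0.25, adjusted p = 4e-14), and rose over all 3 steps. Actc1, cardiac actin of embryonic muscle, was abundant throughout, with 9405 and 9105 at 1 d, 3497 and 7138 at 2 d, 13069 and 18483 at 3 d and 23508 and 23994 at 3.5 d. Actc1 had a log2 change of 1.5 (SE 0.28, adjusted p = 0.00019). Mybph, a myosin-binding protein, rose with a log2 change of 3.25 (adjusted p = 5e-09). Myh8, the neonatal heavy chain, was dim until 3 d and then climbed, with 182 and 130.1 at 1 d, 105 and 107 at 2 d, 187 and 281 at 3 d and 1492 and 741 at 3.5 d and a log2 change of 2.20 (adjusted p = 4e-05) over the last step. A second probe set for Myh8, which is dimmer, had a log2 change of -0.13 and was not called.

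At 3.5 d against 3 d, where 28 genes (0.346%) rose and 10 (0.124%) fell, rises lay in several muscle lists. Of the developmental sarcomere isoforms 5 of 14 rose, with a median log2 change of 1.21, of adult fast contractile genes 3 of 25, of the dystrophin complex 3 of 19 and of calcium handling 2 of 25. The largest was Speg, a kinase of the triads of muscle, with 60.8 and 233 at 1 d, 30.9 and 62.7 at 2 d, 47.5 and 169 at 3 d and 575 and 604 at 3.5 d and a log2 change of at least 2.50 (SE 0.44, adjusted p = 0.0045); another Speg probe set had a log2 change of -0.40 between the windows. Bex1, a small adaptor protein of regenerating muscle, had 22.3 and 79.2 at 1 d, 126 and 229 at 2 d, 368 and 512 at 3 d and 1454 and 1344 at 3.5 d and a log2 change of 1.69 (SE 0.29, adjusted p = 0.0028). Capn6, a calpain-like protein of embryonic muscle, had 66.6 and 85.5 at 1 d, 341 and 329 at 2 d, 1343 and 1709 at 3 d and 5272 and 3359.8 at 3.5 d, rose over all 3 steps and had a log2 change of 1.47 (adjusted p = 0.014) over the last. Of the falls Epha2, an ephrin receptor, had 403 and 283 at 1 d, 101 and 124 at 2 d, 406 and 237 at 3 d and 38.1 and 83.4 at 3.5 d. It fell, rose and fell again over the 3 steps, all called, and was not called between the windows. Sema6b, a semaphorin, fell with a log2 change of -1.77 or lower (adjusted p = 0.0045). The fit with all 54 arrays lends its estimate of spread to this step, and with the 8 arrays alone limma called 2 genes higher and 1 lower over it, and 0 of these are among the 28 and 10. Without 3 d replicate 1 the step gave 4 higher and 3 lower calls.

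Of the adult fast contractile list 6 of 25 (24%) rose, against 12.5% of all genes. The count lay between 3 and 9 with 1 array left out, and was 3 without 1 d replicate 1. Acta1, skeletal actin, had 42523 and 18204 at 1 d, 21529 and 28570.4 at 2 d, 21542 and 31175 at 3 d and 25918 and 33166 at 3.5 d. Myh4, the fastest myosin heavy chain, had 36759.8 and 14381 at 1 d, 25671 and 30007 at 2 d, 15725 and 8552 at 3 d and 21329 and 31138 at 3.5 d. Neither was called, with log2 changes of 0.069 (adjusted p = 1) and -0.55 (adjusted p = 0.48). Myh1, the 2X heavy chain, rose with a log2 change of 1.12 (adjusted p = 0.0063), but its groups overlapped and the call was lost without 1 d replicate 1. Cacng1, a subunit of the calcium channel of the fibre membrane, went from between 431 and 1246 to between 2425 and 5214, a log2 change of 1.92 (SE 0.21, adjusted p = 2.9e-08), and all later arrays lay above the earlier ones and below the 8415 and 7728 of untreated muscle. Ckm, the muscle creatine kinase, fell with a log2 change of -0.94 (adjusted p = 0.0099) between the windows, from between 2118 and 7033 to between 823 and 5012, against 17245 and 19675 in untreated muscle. Its course had 2 directions: it fell from 2 to 3 d, log2 change -1.34 (adjusted p = 0.032), and rose from 3 to 3.5 d, log2 change 1.68 (adjusted p = 0.029). The call was lost without any 1 of 4 arrays (1 d replicate 2, 2 d replicate 2, 3 d replicate 2 or 3.5 d replicate 1), and its other probe set had a log2 change of 1.02 with no call. Desmin, Des, the intermediate filament of muscle at every stage, had 2398 and 3079 at 1 d, 2681 and 2469 at 2 d, 1991 and 1994 at 3 d and 2803 and 3028 at 3.5 d and no call, log2 change -0.13 (adjusted p = 0.79). As markers of the labelled tissue, Acta1, Myh4, Ckm and Des were far above the floor on all 8 arrays.

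Slow fibre genes depended on single arrays. Of the adult slow contractile list 6 of 14 rose and 3 of 14 fell. Without 1 d replicate 1 or without 2 d replicate 2, 2 rose. The falls came to 4 without 1 d replicate 1, and to 1 without 1 d replicate 2, 2 d replicate 1, 3 d replicate 2 or 3.5 d replicate 1. The summed intensity of the list was 8975 to 97930 over the 4 earlier arrays and 23860 to 62920 over the 4 later ones, and 1 d replicate 2 was the highest of the 8 for Tnnt1 and Tnnc1. Tnnt1, slow troponin T, read 864 and 20333 at 1 d, 3564 and 404 at 2 d, 5289.7 and 6251 at 3 d and 15603 and 12633 at 3.5 d. Tnnc1, slow troponin C, read 899.9 and 6549.9 at 1 d, 851 and 189 at 2 d, 1506 and 1747 at 3 d and 5931 and 3748 at 3.5 d. Both were called higher, with log2 changes of 2.00 (adjusted p = 0.014) and 1.49 (adjusted p = 0.011), with overlapping arrays, and both lost the call without 1 d replicate 1 or 2 d replicate 2, and Tnnc1 also without 3.5 d replicate 1. Tnni1, slow troponin I, which new myotubes also make, did not overlap, with 2068 and 6377 at 1 d, 2382 and 684 at 2 d, 6879 and 7599.7 at 3 d and 20929.6 and 17399 at 3.5 d. Between the windows Tnni1 had a log2 change of 2.45 (SE 0.28, adjusted p = 9.7e-08). Myh7 and Myl2, the slow myosin heavy and light chains, fell from 1 to 2 d with log2 changes of -3.42 or lower (adjusted p = 0.025) and -2.90 (adjusted p = 0.025) and were not called between the windows (log2 changes 0.70 (adjusted p = 0.57) and -0.11 (adjusted p = 0.99)). Casq2, a calcium store protein of slow and young fibres, rose from between 197 and 247 to between 518 and 867, a log2 change of 1.57 (SE 0.19, adjusted p = 2.2e-07).

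Of the dystrophin complex and fibre membrane list 11 of 19 (57.9%) rose and none fell, with a median log2 change of 0.89. Beside Cav3 these were led by Ank1, a muscle ankyrin, which went from between 849 and 1656 to between 2186 and 4584 with a log2 change of 1.41 (SE 0.21, adjusted p = 7.3e-06), and stayed below the 14097 and 14852 of untreated muscle. Sgcb, beta-sarcoglycan, rose from between 212 and 329 to between 564 and 1022, with a log2 change of 1.32 (adjusted p = 4.9e-07), and Sntb1, a syntrophin, with a log2 change of at least 1.39 (adjusted p = 0.00093). Of the sarcomere assembly and cytoskeleton list 8 of 32 rose. Csrp2, a LIM protein of young muscle and vessel wall, had 168 and 281 at 1 d, 614 and 918 at 2 d, 1338 and 1657 at 3 d and 2235 and 2027 at 3.5 d. In limma Csrp2 had a log2 change of 2.14 (SE 0.32, adjusted p = 6.7e-06). Pdlim3, a partner of actinin at the Z-disc, rose with a log2 change of 1.90 (adjusted p = 0.00019), and Krt8, a keratin of young fibres and of epithelia, with a log2 change of at least 1.77 (adjusted p = 0.00022). Xirp1, an actin-binding protein of injured and new fibres, was among the 2 that fell, from between 3508 and 23991 to between 1658 and 4422, with a log2 change of -1.48 (adjusted p = 0.0015), most of it between 1 and 2 d, log2 change -2.10 (adjusted p = 0.0057). Calcium handling gave 5 of 25 rises (20%, against 12.5% of all genes), with 3 without 1 d replicate 1 and 9 without replicate 2. The calcium pump Atp2a2 was called, log2 change 1.39 (adjusted p = 0.0064), but not without 1 d replicate 1 or 2 d replicate 2.

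Most mitosis genes rose between 1 and 2 d. Of the mitosis and cytokinesis list 37 of 49 (75.5%) were higher at 3 and 3.5 d and none was lower, with a median log2 change of 1.29. From 1 to 2 d, when 342 genes (4.23%) rose and 150 (1.86%) fell, 34 of 49 of the list had already risen, with a median of 1.65. Over the next step 6 of 49 rose, and over the last none was called in either direction at a median of -0.46. Without the 1 d arrays the count for mitosis and cytokinesis was 4. Mki67, the antigen of cycling cells, had 4.5 and 8.2 at 1 d, 929.7 and 896 at 2 d, 1903 and 1449 at 3 d and 1198 and 1051 at 3.5 d. It was at the floor on both 1 d arrays and peaked at 3 d, with a log2 change of at least 2.49 (SE 0.23, adjusted p = 1.2e-09) between the windows; a second, not called probe set had a log2 change of 0.27. Cdk1, the kinase of mitosis, had 95.4 and 68.1 at 1 d, 1387 and 1565 at 2 d, 2176 and 1833 at 3 d and 1433 and 1281 at 3.5 d, with a log2 change of 4.19 (SE 0.57, adjusted p = 1.1e-05) from 1 to 2 d. Birc5, survivin, and Anln, anillin of the cleavage furrow, also rose, with log2 changes of at least 2.45 (adjusted p = 1.4e-08) and at least 2.45 (adjusted p = 6.4e-08). The kinesin Kif20a had log2 changes of at least 4.29 (adjusted p = 1.7e-09) from 1 to 2 d and 0.33 (adjusted p = 0.82) from 2 to 3 d.

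For DNA replication 20 of 48 (41.7%) rose, with 17 of 48 up from 1 to 2 d and 1 without the 1 d arrays. Top2a, topoisomerase II, had 35.6 and 23.5 at 1 d, 399.9 and 579 at 2 d, 1218 and 1118 at 3 d and 785 and 537 at 3.5 d. Top2a had a log2 change of at least 2.30 (SE 0.22, adjusted p = 2.9e-09). Rrm1 and Rrm2, the subunits of ribonucleotide reductase, rose with log2 changes of 2.14 (adjusted p = 0.00077) and 1.39 (adjusted p = 1.1e-05). At 3.5 d against 3 d 2 of 48 of the list fell and none rose. These were Pole2, a polymerase subunit near the floor, with a log2 change of -1.41 or lower (adjusted p = 0.0072), and Mcm4, of the replicative helicase, with a log2 change of -0.91 (adjusted p = 0.018). In the list of histones and chromatin 12 of 24 rose, among them Hmgb3, from between 589.8 and 1475 to between 2012 and 2716, with a log2 change of 1.30 (adjusted p = 3e-07), and the DNA methyltransferase Dnmt3a, with a log2 change of 1.19 (adjusted p = 0.00061).

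Cdkn1c, the inhibitor p57, had 202 and 290 at 1 d, 312 and 120.1 at 2 d, 4019 and 5041 at 3 d and 8549 and 7545 at 3.5 d, against 1114 and 1350 in untreated muscle. No later array came near an earlier one, with a log2 change of 4.80 (SE 0.18, adjusted p = 1.7e-18), of which 4.54 (adjusted p = 2.5e-13) came between 2 and 3 d. Cdkn1a, the inhibitor p21, was high at all 4 times, with 2948 and 3735 at 1 d, 2124 and 2016 at 2 d, 3029 and 3784 at 3 d and 4227 and 4168 at 3.5 d against 392 and 407 in untreated muscle, and rose with a log2 change of 0.53 (adjusted p = 0.0025). It fell from 1 to 2 d, log2 change -0.68 (adjusted p = 0.018), and recovered from 2 to 3 d, log2 change 0.71 (adjusted p = 0.015). Ccnd1, cyclin D1 of proliferating myoblasts, had 1288 and 2052 at 1 d, 2508 and 3656 at 2 d, 3638 and 3137 at 3 d and 1989.5 and 1805 at 3.5 d and was not called, log2 change 0.19 (adjusted p = 0.59). Of the list of cyclins, E2F and inhibitors 11 of 40 (27.5%) rose, against 12.5% of all genes. Falls came to 4 of 40 (10%), near the 8.06% of all genes. Ccna2, cyclin A2, rose with a log2 change of 1.29 (adjusted p = 9.3e-06), Cdkn3, a phosphatase of cyclin-dependent kinases, with a log2 change of at least 1.45 (adjusted p = 0.002), and Mycl, of the Myc family, with a log2 change of at least 2.35 (adjusted p = 0.0011). The 4 that fell were Myc, Btg2, Btg1 and Gadd45b, named for the small count, which was 2 without 1 d replicate 1, 2 d replicate 1, 3 d replicate 1 or 3 d replicate 2. Myc, a driver of growth, went from between 547 and 867 to between 208 and 446, with a log2 change of -1.15 (adjusted p = 0.0037).

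The promoters of cell cycle genes were searched for 2 kinds of site. The CHR element TTTGAA, known from genes of mitosis, was searched on either strand. It was found for 19 of the 30 mitosis genes that rose and had a promoter at hand (63.3%). The share was 15.3% of the genes on the array and 20.2% of all genes with a promoter. Either of the E2F sites TTTGGCGC and TTTCCCGC, of genes of replication, was found for 7 of the 17 DNA replication genes that rose and had a promoter (41.2%). The share was 3.30% on the array and 1.80% of all genes with a promoter, and 0 of the 30 mitosis genes held either site. Only these 2 exact forms were searched, so the 0 does not show that mitosis genes lack E2F sites. Cdk1 at chr10:69352863-69353162 and Mcm3 at chr1:20820263-20820562, both on the - strand of GRCm38.p6 from RefSeq, are shown with the CHR elements and the E2F sites in capitals; Mcm3, of the replicative helicase, was chosen for its matches.
Cdk1 promoter: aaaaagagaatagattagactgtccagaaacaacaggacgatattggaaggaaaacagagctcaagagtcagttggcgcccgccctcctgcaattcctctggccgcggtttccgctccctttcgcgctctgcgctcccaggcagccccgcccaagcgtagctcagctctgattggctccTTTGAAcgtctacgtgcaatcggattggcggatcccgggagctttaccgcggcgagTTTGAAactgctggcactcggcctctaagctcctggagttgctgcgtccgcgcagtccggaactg
Mcm3 promoter: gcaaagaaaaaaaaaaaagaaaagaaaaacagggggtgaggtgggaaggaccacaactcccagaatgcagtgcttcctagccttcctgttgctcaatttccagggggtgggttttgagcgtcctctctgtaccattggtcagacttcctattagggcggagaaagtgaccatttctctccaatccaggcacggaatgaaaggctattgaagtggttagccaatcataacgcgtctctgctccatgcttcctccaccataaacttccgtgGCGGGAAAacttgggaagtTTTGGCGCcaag
The Cdk1 matches start at bases -71 and -15 and the Mcm3 matches, GCGGGAAA and TTTGGCGC, at +20 and +39. The list counts were drawn from genes that rose, and the matches are a description with no test.

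Imprinted genes, those expressed from 1 parental copy and many of them growth regulators of the embryo, gave 11 of 17 (64.7%) rises and no fall, at a median log2 change of 0.97. Cdkn1c is one of them. Peg3, a paternally expressed zinc-finger factor of satellite cells, had 59.0 and 353 at 1 d, 388 and 489 at 2 d, 3101 and 3652 at 3 d and 4488 and 4306 at 3.5 d. Between the windows Peg3 had a log2 change of at least 3.91 (SE 0.26, adjusted p = 1.7e-12). Mest, a paternally expressed hydrolase, went from between 152 and 448 to between 2071 and 3719, a log2 change of 3.26 (SE 0.30, adjusted p = 1.8e-09). Grb10, an adaptor that restrains growth receptors, had 124 and 60 at 1 d, 257 and 328 at 2 d, 698 and 989.5 at 3 d and 1652 and 1665 at 3.5 d. In limma Grb10 had a log2 change of at least 2.87 (SE 0.32, adjusted p = 7e-08); of its 3 probe sets 2 were called. Igf2, the insulin-like growth factor made by differentiating myoblasts, had 1862 and 1780.1 at 1 d, 1329.5 and 1357 at 2 d, 4402 and 6653 at 3 d and 12377 and 11504 at 3.5 d, against 3605 and 3327 in untreated muscle. Its groups did not overlap, with a log2 change of 2.36 (SE 0.14, adjusted p = 1.9e-13), and it was among the few genes called over the step from 3 to 3.5 d, log2 change 1.14 (adjusted p = 0.0045); a second Igf2 probe set near the floor had a log2 change of -0.13. In the insulin-like growth factor system 5 of 19 rose and 3 of 19 fell. Igfbp4, a binding protein, rose with a log2 change of 0.96 (adjusted p = 1.8e-05), in part before 2 d, log2 change 0.99 (adjusted p = 0.0043).

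**Figure D3:**
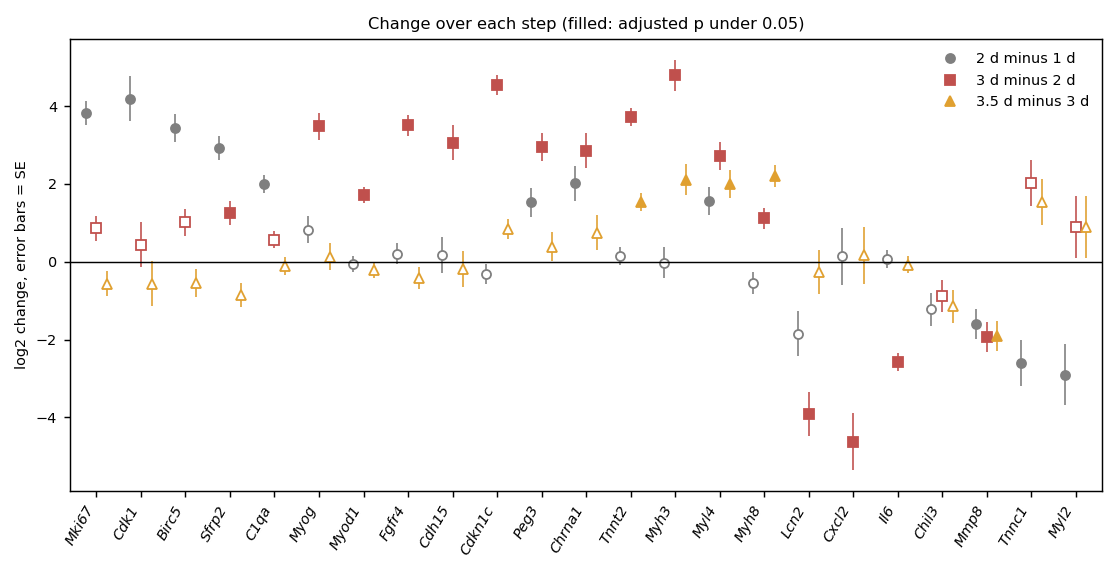
Log2 change with its SE for 23 genes over the steps from 1 to 2 d (grey circles), 2 to 3 d (red squares) and 3 to 3.5 d (orange triangles); filled symbols passed an adjusted p under 0.05. Cell cycle genes on the left have their filled symbol at 2 d minus 1 d, muscle genes in the middle at 3 d minus 2 d, and Tnnt2, Myh3, Myl4 and Myh8 also at 3.5 d minus 3 d.

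The falls were led by genes of neutrophils and of acute inflammation. Of the neutrophil list 15 of 22 (68.2%) fell and none rose, with a median log2 change of -2.58. Its summed intensity was 47320 to 169700 over the 4 earlier arrays, 8831 to 16360 over the later ones and 2656 to 2782 in untreated muscle, and no marker of the list was at the floor on all 8 arrays. Lcn2 had 27103 and 17996 at 1 d, 11581 and 3236 at 2 d, 471 and 351 at 3 d and 369 and 308 at 3.5 d. Every later array was far below every earlier one, with a log2 change of -4.97 (SE 0.41, adjusted p = 1.2e-10), against 143 and 158 in untreated muscle; a second Lcn2 probe set had a log2 change of -0.51. S100a8, a calcium-binding alarm protein of granulocytes, had 44558 and 20058 at 1 d, 27184 and 12836 at 2 d, 1542 and 1419.7 at 3 d and 1005 and 685 at 3.5 d. S100a8 had a log2 change of -4.41 (SE 0.57, adjusted p = 7.7e-07). S100a9, its partner, fell with a log2 change of -4.38 (adjusted p = 9.3e-07). Mmp8, the collagenase of neutrophils, had 5046 and 1815 at 1 d, 1591 and 628 at 2 d, 242 and 288 at 3 d and 75.8 and 66.1 at 3.5 d and fell at every step, with log2 changes of -1.60 (adjusted p = 0.01), -1.92 (adjusted p = 0.0023) and -1.90 (adjusted p = 0.015). Ltb4r1, the leukotriene B4 receptor that guides neutrophils, went from between 1957 and 6566 to between 152 and 183, a log2 change of -4.44 (SE 0.30, adjusted p = 2.8e-12), against the 168 and 159 of untreated muscle. The decoy receptor Il1r2 fell with a log2 change of -3.48 (adjusted p = 2.7e-07) and the peptidoglycan binder Pglyrp1 with a log2 change of -3.48 or lower (adjusted p = 5.5e-07).

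Of acute cytokines and chemokines 19 of 37 (51.4%) fell and 1 of 37 rose, and 13 of 37 fell over the step from 2 to 3 d. Cxcl2, a chemokine that draws neutrophils, had 4056 and 2287 at 1 d, 11797 and 952 at 2 d, 120.1 and 154 at 3 d and 116 and 200.1 at 3.5 d. Replicates at 2 d differed most among the 4 times, yet every later array was lower, with a log2 change of -4.47 (SE 0.52, adjusted p = 1e-07). Il1b, interleukin 1 beta, had 4716 and 2861 at 1 d, 8986 and 2509 at 2 d, 343 and 570.4 at 3 d and 352 and 327 at 3.5 d. Between the windows Il1b had a log2 change of -3.43 (SE 0.53, adjusted p = 1.2e-05). Il6, interleukin 6, was level over the earlier arrays at between 335 and 479 and at the floor on 3 of the 4 later ones, a log2 change of -2.58 or lower (SE 0.16, adjusted p = 3.2e-13). Selp, P-selectin of activated endothelium, fell from between 797 and 1332 to between 95.5 and 154, a log2 change of -3.22 (SE 0.32, adjusted p = 7e-09). The 1 that rose was Cxcl10, an interferon-induced chemokine, named for the small count: it had 152 and 97.4 at 1 d, 99.0 and 184 at 2 d, 338 and 293 at 3 d and 206 and 182 at 3.5 d and a log2 change of 0.95 (adjusted p = 0.0057). The count of rises among acute cytokines and chemokines was 0 without 2 d replicate 1 and 2 without 1 d replicate 2. Acod1, which makes itaconate in activated macrophages, fell with a log2 change of -3.86 (adjusted p = 2.6e-06), and Hdc, which makes histamine, with a log2 change of -3.61 (adjusted p = 1.4e-06).

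**Figure D4:**
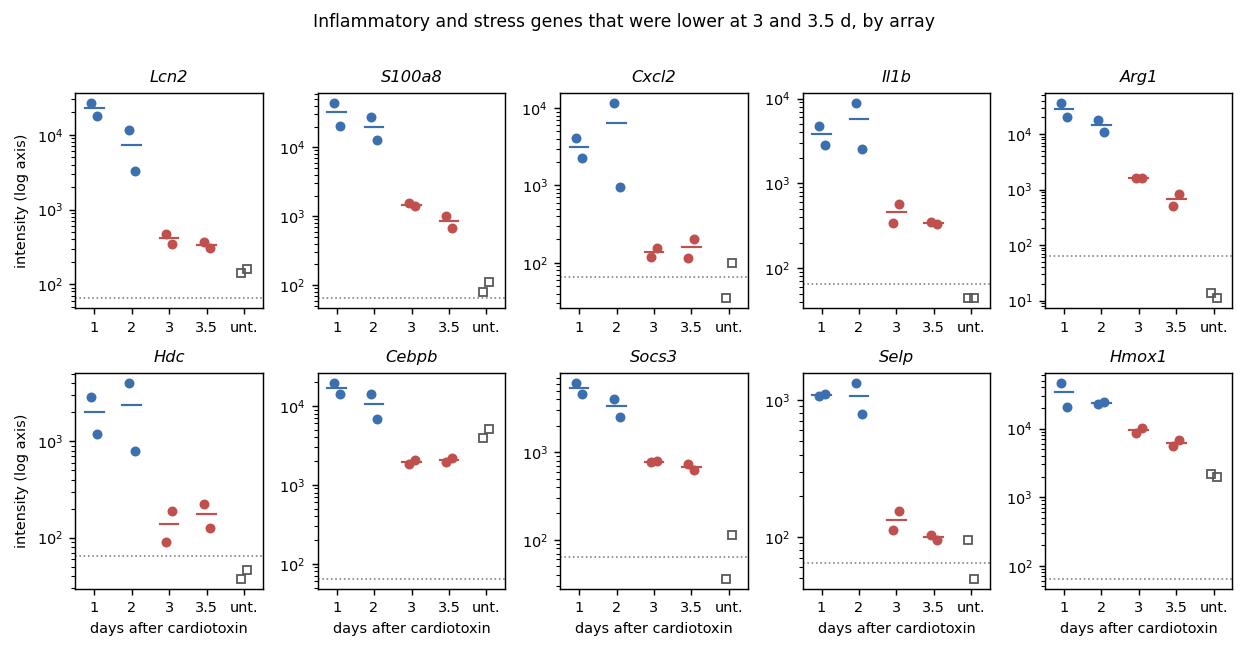
Intensity (log axis) of 10 inflammatory and stress genes on each array at 1, 2 (blue), 3 and 3.5 d (red) after cardiotoxin, with the mean of each time as a bar; open squares are the 2 untreated arrays and the dotted line is the floor of 64.7, where it falls within the axis. In all 10 panels the 4 red points lie below the 4 blue ones, and Cebpb falls below its untreated level.

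Stress and immediate early genes fell with them, 28 of 52 (53.8%), against 2 of 52 that rose. Cebpb, a transcription factor of acute inflammation that also restrains myoblast differentiation, had 19557 and 14008 at 1 d, 14321 and 6754 at 2 d, 1843 and 2068 at 3 d and 1954 and 2191 at 3.5 d. It dropped below the 3905 and 5099 of untreated muscle, with a log2 change of -2.67 (SE 0.19, adjusted p = 7e-12), most of it between 2 and 3 d, log2 change -2.33 (adjusted p = 7.5e-07). Socs3, the brake on interleukin 6 signalling, went from between 2544 and 6134 to between 625 and 791, a log2 change of -2.50 (SE 0.36, adjusted p = 4.5e-06); Ier3 and Junb fell with log2 changes of -2.46 (adjusted p = 1e-07) and -2.31 (adjusted p = 7.4e-06). Mxd1, an antagonist of Myc, was at the floor on all 4 later arrays, with 2855 and 885 at 1 d, 1612 and 314 at 2 d, 14 and 20.5 at 3 d and 15 and 35.0 at 3.5 d. In limma Mxd1 had a log2 change of -4.04 or lower (SE 0.42, adjusted p = 1.3e-08). Of the list for haem, iron and metallothionein 8 of 19 fell and 1 of 19 rose. Hmox1, haem oxygenase of cells that take up blood, had 46297 and 20961 at 1 d, 23013 and 24438 at 2 d, 8733 and 10108 at 3 d and 5633 and 6805 at 3.5 d. Hmox1 had a log2 change of -1.83 (SE 0.21, adjusted p = 7.7e-08), and was still above the 2169.7 and 1964 of untreated muscle at 3.5 d. Hp, haptoglobin, Mt1, metallothionein, and Slc11a1, a metal carrier of phagosomes, fell with log2 changes of -1.85 (adjusted p = 2.6e-06), -1.40 (adjusted p = 1.1e-08) and -1.39 (adjusted p = 8.7e-05).

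Of the list of monocytes and macrophages 10 of 37 (27%) fell, against 8.06% of all genes, and 4 of 37 (10.8%) rose, a share near the 12.5% of all genes. The summed intensity of the list was 147100 to 215900 over the earlier and 130400 to 164300 over the later arrays, against 11590 to 15240 in untreated muscle. Marco was at the floor on all 8. Cd14, the receptor of bacterial lipid, fell from between 6767 and 23931 to between 3539.7 and 4464, with a log2 change of -1.93 (adjusted p = 1.2e-06), and the chemokine receptor Ccr1 with a log2 change of -1.95 (adjusted p = 0.00051). Ly86, a partner of the receptor Cd180, rose from between 526 and 1467 to between 2682 and 3270, a log2 change of 1.82 (SE 0.21, adjusted p = 1.2e-07), and Cybb, of the phagocyte oxidase, with a log2 change of 1.69 (adjusted p = 5.1e-06). The 2 others that rose were Adgre1, known as F4/80, and Csf1r, the receptor of macrophage growth factor.

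Among genes of repair-type macrophages 11 of 30 (36.7%) rose and 4 of 30 fell, and 10 of 30 had risen by 2 d. Without the 1 d arrays, repair-type macrophage genes gave 2 rises and 4 falls. Arg1, arginase, a classic marker of that state in mice, was among those that fell. It had 37010.3 and 20285 at 1 d, 18182 and 10913 at 2 d, 1587 and 1623 at 3 d and 503 and 844 at 3.5 d. Between the windows Arg1 had a log2 change of -4.26 (SE 0.57, adjusted p = 1.2e-06). Chil3, a chitinase-like lectin, had 20394 and 15245 at 1 d, 8093 and 7016 at 2 d, 4724 and 3539 at 3 d and 1902 and 1786 at 3.5 d. In limma Chil3 had a log2 change of -2.07 (SE 0.30, adjusted p = 3.8e-06). Pltp, the phospholipid transfer protein, had 518 and 1253 at 1 d, 2007 and 2327 at 2 d, 5877 and 5252 at 3 d and 6204 and 7983 at 3.5 d. Pltp had a log2 change of 2.25 (SE 0.18, adjusted p = 5.3e-11). The complement C1q chains had reached most of their level by 2 d. C1qa had 2223 and 3231 at 1 d, 10408 and 11077 at 2 d, 14582 and 17399 at 3 d and 14436 and 15134 at 3.5 d, with log2 changes of 2.00 (adjusted p = 3.4e-07) from 1 to 2 d and 0.57 (adjusted p = 0.19) from 2 to 3 d. C1qb and C1qc had log2 changes of 1.32 (adjusted p = 2.9e-07) and 1.22 (adjusted p = 6.8e-08) between the windows. Of the lysosome list 12 of 35 rose and 2 of 35 fell (0 without 1 d replicate 1, 3.5 d replicate 1 or 3.5 d replicate 2 and 1 without 2 d replicate 1, 2 d replicate 2, 3 d replicate 1 or 3 d replicate 2), and 8 of 35 rose from 1 to 2 d. Ctse, cathepsin E, rose with a log2 change of 1.44 (adjusted p = 0.0011), Acp5, the acid phosphatase of osteoclasts and macrophages, with a log2 change of 1.33 (adjusted p = 0.0041), Ctsk, cathepsin K, with a log2 change of 1.22 (adjusted p = 6.5e-05) and Glb1, beta-galactosidase, with a log2 change of 0.89 (adjusted p = 0.00071); another Ctse probe set was not called.

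Genes induced by interferon rose in 11 of 28 cases with no fall, or 7 for interferon response without 2 d replicate 1. Ifit2 had 21.9 and 83.1 at 1 d, 145 and 359.9 at 2 d, 989 and 796 at 3 d and 449.5 and 577 at 3.5 d. Between the windows Ifit2 had a log2 change of at least 2.38 (SE 0.36, adjusted p = 9.7e-06). The antiviral GTPase Mx1 had 43.1 and 55.5 at 1 d, 155 and 387 at 2 d, 670 and 515 at 3 d and 354 and 174 at 3.5 d, highest at 3 d, a log2 change of at least 1.60 (SE 0.32, adjusted p = 0.00036), and Ifi47 rose with a log2 change of 1.53 (adjusted p = 4.6e-05). Of class II antigen presentation 3 of 16 (18.8%) rose, against 12.5% of all genes. H2-Aa and H2-Ab1 rose with log2 changes of 0.94 (adjusted p = 0.018) and 0.94 (adjusted p = 0.011). The cathepsin Ctss rose with a log2 change of 0.58 (adjusted p = 0.019). All 3 were called in some but not all fits that left out 1 array. The count for class II antigen presentation was 0 without 3.5 d replicate 1 and 1 without 2 d replicate 2 or 3 d replicate 2.

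Fibroblast and matrix genes rose as well. Of the fibroblast list 13 of 23 (56.5%) rose and 2 of 23 fell, and of collagens and laminins 18 of 38 (47.4%) rose and 2 of 38 fell (0 without 1 d replicate 1 and 1 without 2 d replicate 1, 2 d replicate 2, 3 d replicate 1, 3 d replicate 2 or 3.5 d replicate 2). Of the latter list 8 of 38 had risen from 1 to 2 d and 11 of 38 rose from 2 to 3 d. Col3a1, the collagen of new connective tissue, had 2798 and 3692 at 1 d, 8952 and 12926 at 2 d, 13972 and 17578 at 3 d and 22268 and 19198 at 3.5 d. In limma Col3a1 had a log2 change of 1.61 (SE 0.22, adjusted p = 2.3e-06), with 1.74 (adjusted p = 0.00059) in the step from 1 to 2 d. Col1a2, of type I collagen, rose with a log2 change of 1.46 (adjusted p = 2.4e-07). Postn, periostin, a matrix protein of wounds, was among the 15 largest rises of all genes, with 1198 and 1969.5 at 1 d, 1294 and 2431 at 2 d, 11451 and 12084 at 3 d and 20965 and 16948 at 3.5 d. Postn had a log2 change of 3.17 (SE 0.26, adjusted p = 1.2e-10). C1qtnf3, a secreted protein with a collagen-like stretch, was also among the 15 largest rises, with 15 and 56.9 at 1 d, 9.6 and 65.0 at 2 d, 1334 and 1875 at 3 d and 4479 and 3065 at 3.5 d. It was at the floor on 3 of the 4 earlier arrays, a log2 change of at least 5.22 (SE 0.24, adjusted p = 2.5e-16). Col15a1 and Nid2, of basement membranes, rose with log2 changes of 1.66 (adjusted p = 9.5e-08) and 1.64 (adjusted p = 1e-07), and Thbs2, a thrombospondin, with a log2 change of 2.26 (adjusted p = 8.2e-09). Of matricellular and provisional matrix 12 of 25 rose and 3 of 25 fell. Of collagen processing enzymes 7 of 16 rose. Lox among them, which cross-links collagen, had 2596 and 3403 at 1 d, 1914 and 2239 at 2 d, 4957 and 4629.5 at 3 d and 5659.9 and 4851 at 3.5 d and a log2 change of 1.01 (adjusted p = 0.00014). Of the small leucine-rich proteoglycans 4 of 9 rose and 1 of 9, Dcn, fell, while Omd and Epyc were at the floor on all 8 arrays. The rises were those of Ogn, Bgn, Fmod and Lum, with log2 changes of 1.80 (adjusted p = 4.1e-06), 1.2 (adjusted p = 0.00023), 1.14 (adjusted p = 6.9e-07) and 0.96 (adjusted p = 4.7e-05).

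Of metalloproteinases, the enzymes that cut the matrix, and their inhibitors 7 of 25 (28%) fell, against 8.06% of all genes. Rises came to 4 of 25 (16%), near the 12.5% of all genes. Mmp3, stromelysin, had 9374 and 4327 at 1 d, 2759.8 and 2488 at 2 d, 766 and 435 at 3 d and 619.6 and 378 at 3.5 d. Between the windows Mmp3 had a log2 change of -2.95 (SE 0.45, adjusted p = 9.3e-06). Mmp9, a gelatinase that neutrophils also carry, fell from between 4047 and 11746 to between 458 and 1885, with a log2 change of -2.81 (adjusted p = 0.0032). Serpinb2, an inhibitor of plasminogen activators, fell with a log2 change of -2.18 (adjusted p = 3e-05), and Plaur, the receptor of urokinase, with a log2 change of -1.45 (adjusted p = 0.0046).

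In the TGF-beta, BMP and myostatin pathway 7 of 43 (16.3%) rose, near the 12.5% of all genes, and 7 of 43 (16.3%) fell, against 8.06%. Tgfb3, one of the ligands, had 784 and 869 at 1 d, 1174 and 1028 at 2 d, 1949 and 2573 at 3 d and 4305 and 3593 at 3.5 d, without overlap and with a log2 change of 1.64 (SE 0.12, adjusted p = 8.2e-12). Part of it came in each later step, 1.03 (adjusted p = 0.00018) and 0.81 (adjusted p = 0.016). The activin subunits Inhba and Inhbb fell, with log2 changes of -1.72 (adjusted p = 0.00091) and -1.49 or lower (adjusted p = 6.4e-07), and Tgfbi, a matrix protein named for its induction, fell from between 14221 and 18966 to between 4542 and 7447, with a log2 change of -1.42 (adjusted p = 8.2e-06). In the Notch and Wnt pathway 6 of 45 (13.3%) rose, near the 12.5% of all genes, and 1 of 45 fell (2 without 1 d replicate 2, 2 d replicate 1, 3 d replicate 1 or 3 d replicate 2). Sfrp2, a secreted antagonist of Wnt ligands, had 502 and 542 at 1 d, 2891 and 5401 at 2 d, 8231 and 10933 at 3 d and 5236 and 5319 at 3.5 d. In limma Sfrp2 had a log2 change of 2.30 (SE 0.22, adjusted p = 2.8e-09), with the larger share from 1 to 2 d, log2 change 2.92 (adjusted p = 1.3e-07). Ccn4, a matricellular target of Wnt signalling, had 294 and 275 at 1 d, 392 and 334 at 2 d, 1081 and 1135 at 3 d and 1463 and 968 at 3.5 d. Ccn4 had a log2 change of 1.84 (SE 0.22, adjusted p = 2e-07). Sfrp1 and Dkk3, further secreted modulators, rose with log2 changes of 1.62 (adjusted p = 2.4e-05) and at least 1.16 (adjusted p = 0.00035). Among growth factors of regeneration 4 of 29 (13.8%) rose, near the 12.5% of all genes. The rises came to 2 or 3 with 1 array left out. In the same list 5 of 29 (17.2%) fell, among them Il6 and Plaur, against 8.06% of all genes. Mdk, midkine, had 127 and 244 at 1 d, 116 and 113 at 2 d, 817 and 743 at 3 d and 509 and 539 at 3.5 d. Between the windows Mdk had a log2 change of 2.17 (SE 0.16, adjusted p = 1.6e-11), and Ccn3 rose with a log2 change of at least 1.54 (adjusted p = 1.1e-06).

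**Figure D5:**
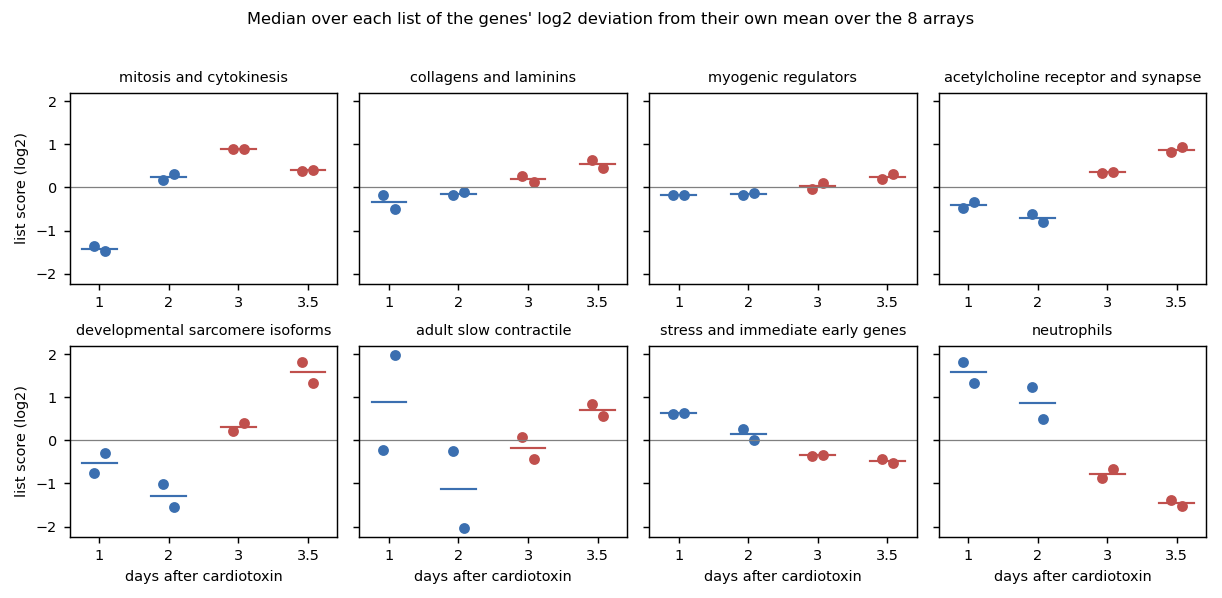
Score of 8 gene lists on each array at 1, 2 (blue), 3 and 3.5 d (red), with the mean of each time as a bar; the score is the median over the list of each gene's log2 deviation from its own mean over the 8 arrays. Mitosis scores were -1.48 to 0.31 on the earlier and 0.39 to 0.90 on the later arrays, those of developmental sarcomere isoforms -1.54 to -0.29 and 0.22 to 1.82, and those of neutrophils 0.50 to 1.81 and -1.52 to -0.66.

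Markers of other cell types in the muscle were measured as well. Of the endothelium list 7 of 20 fell and 1 of 20 rose. Emcn, endomucin, fell from between 1006 and 1756 to between 669.6 and 807, with a log2 change of -0.90 (adjusted p = 3.5e-06), and Nos3, the endothelial nitric oxide synthase, with a log2 change of -2.42 or lower (adjusted p = 0.00092). Kdr, a receptor of vascular growth factor, had a log2 change of at least 0.96 (adjusted p = 0.049), and its call ended in 6 of the 8 fits that left out 1 array. Of smooth muscle and pericytes 4 of 15 rose, among them Smtn, smoothelin, with a log2 change of 1.85 (adjusted p = 1e-05), and Acta2, an actin of smooth and embryonic skeletal muscle, from between 2238 and 3015 to between 2939.5 and 8019, with a log2 change of 1.01 (adjusted p = 6.1e-06). Mbp and Sox10, of Schwann cells, fell with log2 changes of -1.05 (adjusted p = 0.00033) and -0.61 (adjusted p = 0.021), and 1 of 13, Ncam1, rose. Sox10 lost the call in 5 of the 8 fits that left out 1 array. Erythroid genes gave 4 of 9 falls, and the count for erythroid cells was 2 without 1 d replicate 1, 2 d replicate 1 or 3 d replicate 2. Alas2, the haem enzyme of red cells, had 9415 and 4889.6 at 1 d, 1572 and 527 at 2 d, 441 and 783 at 3 d and 329 and 621 at 3.5 d and fell with a log2 change of -2.27 (adjusted p = 2.8e-05), almost all of it from 1 to 2 d, log2 change -2.90 (adjusted p = 0.00058). Among T and natural killer cells 3 of 23 (13%) rose, near the 12.5% of all genes. The count was 1 without 1 d replicate 2 and 0 with only the 8 arrays in the fit. Cd28, Cd4 and Thy1, the 3 genes, each lost the call in 2 of the 8 fits that left out 1 array, while Cd5, Cd8a and Cd8b1 were at the floor on all 8 arrays. The B cell list gave 3 of 17 rises (17.6%, against 12.5% of all genes). These were Cd72, Cd22 and Blnk, with log2 changes of at least 2.25 (adjusted p = 1.1e-05), at least 1.92 (adjusted p = 0.014) and 1.40 (adjusted p = 0.00023). Cd22 lost the call without 3 d replicate 2. No keratinocyte gene was called of 17, with summed intensities of 15580 to 43620 and 12690 to 15780 and with Krt5, Krt16 and Ivl at the floor on all 8 arrays.

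Lists of energy genes differed in the share that passed the test. Of oxidative phosphorylation and citric acid cycle 4 of 74 (5.41%) rose and 2 of 74 (2.7%) fell, under the 12.5% and 8.06% of all genes. The counts were 1 and 5 without 1 d replicate 1 and 12 rises without 1 d replicate 2. Their summed intensity was 201400 to 301900 and 224600 to 251000, against 777500 to 795400 in untreated muscle. Pdk4, which shuts pyruvate out of the mitochondrion, had 9931 and 18721 at 1 d, 1500.2 and 747 at 2 d, 1744 and 945 at 3 d and 973 and 769 at 3.5 d. In limma Pdk4 had a log2 change of -1.85 (SE 0.27, adjusted p = 4.6e-06), and had completed its fall by 2 d, log2 change -3.69 (adjusted p = 9.6e-08). Of glycolysis and glycogen 4 of 34 (11.8%) fell, against 8.06% of all genes, and none rose. The falls came to 2 without 2 d replicate 1 or 3.5 d replicate 1, and the rises to 3 without 1 d replicate 2. Hk2, muscle hexokinase, had 4356 and 6119 at 1 d, 2583 and 2654 at 2 d, 1373 and 1030 at 3 d and 1561 and 1799 at 3.5 d. Hk2 had a log2 change of -1.38 (SE 0.16, adjusted p = 1.2e-07). Slc2a1, the glucose carrier Glut1, fell with a log2 change of -2.09 (adjusted p = 0.0088), a call lost without 2 d replicate 1. Of creatine and adenylate enzymes 4 of 15 (26.7%) rose and 4 of 15 (26.7%) fell, against 12.5% and 8.06% of all genes. Each count was 3 or 4 with 1 array left out. Gatm, the first enzyme of creatine synthesis, belongs to this list and rose, with 379 and 806 at 1 d, 787 and 1076 at 2 d, 3251 and 3699.6 at 3 d and 5919 and 5368 at 3.5 d. Between the windows Gatm had a log2 change of 2.63 (SE 0.20, adjusted p = 3.7e-11). Mitochondrial creatine kinase, Ckmt2, fell with a log2 change of -1.29 (adjusted p = 0.00077). Ribosomal protein genes gave 3 of 22 (13.6%) rises, near the 12.5% of all genes (5 without 1 d replicate 2), and the list for nucleolus and ribosome making 6 of 23 falls, among them Nop56, with a log2 change of -0.74 (adjusted p = 0.0011), and fibrillarin, Fbl, with a log2 change of -0.51 (adjusted p = 0.0087).

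The 4 d arrays share the low actin ratio of the earlier arrays and were taken after all those of the comparison. They were set against the same 1 and 2 d arrays in the same limma fit, so this is not independent of the comparison of the windows, and genes were picked from both outcomes after the values were seen. Myog read 4983 and 6174 at 4 d, a log2 change against 1 and 2 d of 2.99 (adjusted p = 1.8e-08). Myh3 read 6069.5 and 5853, Tnnt2 3800.3 and 4159, Chrna1 6183 and 6690.2, Cdkn1c 5269.7 and 5272 and Fgfr4 439 and 433, and like Myog each lay above all 4 arrays at 1 and 2 d. Mki67, with 723 and 1235, overlapped the 2 d arrays. Some other muscle genes called higher between the windows did not pass at 4 d. Not all genes that failed to pass are given, and the share of named calls that passed was not counted. Of the other receptor subunits Chrng passed, with a log2 change of 4.47 (adjusted p = 1.1e-08), and Chrnd did not, with 0.94 (adjusted p = 0.095). Further genes that did not pass were Sntb1, 0.11 (adjusted p = 0.95), Pdlim3, 0.53 (adjusted p = 0.54), and Myh1, 0.48 (adjusted p = 0.49). So were Sypl2, a protein of the muscle triad, -0.060 (adjusted p = 0.99), Atp2a2, 0.92 (adjusted p = 0.22), and Mef2a, 0.54 (adjusted p = 0.094). Ckm fell there too, with a log2 change of -1.68 (adjusted p = 4e-04). Of the genes that fell between the windows, Lcn2 read 589 and 374, Cxcl2 211 and 194 and S100a8 2089 and 1276, each below all 4 earlier arrays. Mmp9 of the neutrophil list read 2612 and 1241, a log2 change of -1.98 (adjusted p = 0.14) that did not pass. Nor did those of Junb, -0.66 (adjusted p = 0.39), Hp, -0.70 (adjusted p = 0.17), Inhba, -0.49 (adjusted p = 0.59), and Saa3, an acute phase protein, -1.59 (adjusted p = 0.32). Of genes of other lists that rose, Cybb and Fmod did not pass either, with 0.41 (adjusted p = 0.47) and 0.077 (adjusted p = 0.89).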

How the data were processed

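The values are the intensities deposited by the authors for probe sets, sets of short probes for 1 transcript, on the later array version; their unit is not stated and was read from their range as linear intensity. The software behind them is not given in the sources used here. That every array was scaled to a common trimmed mean was read from the values, and no scaling was added. Intensities were raised to a floor of 64.68, the 20th percentile of the median array, and put on the log2 scale. Of 12488 probe sets, 66 controls were left out, and 11997 were tested that lay above the floor on at least 2 of 54 arrays. Symbols came from the platform annotation: 10833 probe sets had 1, 396 several and 1193 none. Of 8251 genes, 8086 were tested, each by its probe set with the highest mean over the 8 arrays.

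limma 3.58.1 in R 4.3.3 was fitted with 1 mean for each of 27 groups, so that all 54 arrays lent their spread (27 residual degrees of freedom). The comparison was the mean of 3 and 3.5 d minus the mean of 1 and 2 d, and neighbouring times were compared in the same fit. P-values were adjusted over 11997 probe sets (Benjamini-Hochberg, threshold 0.05), and every adjusted p in the text is limma's unless called exact. The members, the 58 gene lists and the naming rule were chosen with earlier results of these data known. The rule named, with values at the floor, the 15 largest rises and falls, the 4 largest called changes of each list and the 5 largest rises and falls of each step. It also named a set list of myogenic regulators, cell cycle inhibitors and muscle markers. Other genes are marked where named. Not every gene that the rule named is printed in the text. Alternatives were quantile normalization, median scaling, other floors and filters, fewer arrays in the fit, a 2-fold requirement, a variance trend, a replicate block, averaging the probe sets of a gene, and each array or time left out. List counts under the alternatives and the 4 d arrays were added after seeing the data. The fit was tested on simulated data. Promoters came from RefSeq on GRCm38.p6 and cover 6452 of the genes tested. Replicate numbers were read from the array codes; deviations of same-numbered arrays correlated at 0.039 to 0.058 between 2, 3 and 3.5 d, and at -0.168 to 0.161 over 153 pairs of times, of which 5 were over 0.1, so they were not taken as pairs. The labels do not say that the 2 arrays of a time came from separate animals, so p-values may measure technical spread. The number of arrays limits the precision.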

Additional observations from a re-analysis of the deposited data

Results flagged for a closer look

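Of 178 groups of 4 arrays examined, chance alone gives about 1 in 20 with an array standing apart, and 3 did. Id1 on the 3.5 d replicate 1 read 829.1, the lowest of the 4 later arrays, with the others between 1112.5 and 1132.0. The score of the growth factors of regeneration on the 1 d replicate 1 was 0.153, the highest of the 4 earlier arrays, with the others between -0.057 and -0.053. The score of the complement list on the 3.5 d replicate 2 was 0.193, the highest of the 4 later arrays, with the others between 0.046 and 0.071.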

How the results depend on the processing

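Of the 234 genes named by the rule, not all of which are printed above, 221 were called. Of these calls 216 held under quantile normalization, 209 under median scaling, 216 and 217 with the floor at 0.5 and 2 times its value, 220 with no filter, 161 with only the 8 arrays in the fit, 103 with the 8 arrays as 2 groups, 74 with a 2-fold change required, 205 with a gene's probe sets averaged, and between 195 and 209 with 1 array left out. Without both 1 d arrays 137 held and Thy1 turned to -0.156 on the log2 scale; with its probe sets averaged Ckm turned to 0.04. In the comparison of the windows, 359 genes rose and 297 fell with the 8 arrays as 2 groups, 86 and 54 where a change of at least 2-fold was required, 480 and 327 without both 1 d arrays, and 402 fell without both 3.5 d arrays. With only the 8 arrays in the fit, 708 rose and 481 fell between the windows, of which 591 and 391 were shared with the calls of the full fit. In that fit 43 rose and 22 fell from 2 to 3 d, and 114 and 27 from 1 to 2 d. From 3 to 3.5 d these were 2 and 1, with 0 of them shared with the calls of the full fit. With a 2-fold change required, these were 22 and 9 from 2 to 3 d and 21 and 3 from 1 to 2 d; from 3 to 3.5 d limma called 0 and 0, with 731 genes at an unadjusted p under 0.05. From 3 to 3.5 d, 14 rose under median scaling, and 6 and 26 fell with the floor at 0.5 and 2 times its value. Leaving out 1 array, between 788 (without 3.5 d replicate 1) and 1085 rose and between 503 (without 3 d replicate 2) and 727 fell between the windows. From 2 to 3 d, between 87 (without 3 d replicate 2) and 261 rose and between 51 (without 2 d replicate 1) and 161 fell. From 3 to 3.5 d, between 4 (without 3 d replicate 1) and 39 rose and between 2 (without 3.5 d replicate 2) and 11 fell. From 1 to 2 d, between 140 and 443 rose and between 55 and 219 fell, both fewest without 2 d replicate 2, and 209 rose without 1 d replicate 1. With the replicate number as a block, 1041 rose and 674 fell between the windows, and 236 and 149 from 2 to 3 d. The counts were 27 and 9 from 3 to 3.5 d, and 339 and 148 from 1 to 2 d. The numbers were not shown to pair the arrays. Both 1 d codes carry number 1, and the correlations between 2, 3 and 3.5 d given above stayed under 0.1. Over all 153 pairs of times 5 were over 0.1, the highest at 0.161. The block ended the calls of Eif5, Kdr and Psmd11. The cause of these differences was not tested. Signal at or near the floor limits the fold changes of genes that were dim at 1 and 2 d, for which only a bound is given.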
